A study of Homo sapiens with 43 samples.

Results

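The hydrocortisone dose effect was the day 3 comparison of 10 µM with 0.01 µM hydrocortisone in HMC3 cells, each dose set against its own ethanol vehicle. The net dose effect of a gene was its log2 change at 10 µM minus its log2 change at 0.01 µM. The comparison used 12 of the 43 libraries of the series, 3 in each of 4 groups, which were chosen by their treatment labels alone. The groups were HMC3 cells kept for 3 days in 10 µM hydrocortisone, in the vehicle of that dose, in 0.01 µM hydrocortisone, or in the vehicle of the lower dose. HMC3 is an immortalised human line that the labels call microglial, and all flasks were seeded at the same passage. The amount of ethanol in the vehicle of each dose is not given in the labels. Further groups were set beside these 4 where a result called for them. They were HMC3 cells harvested on day 6, after 3 days in 10 µM or 0.01 µM hydrocortisone and 3 more days in hormone-free medium (3 libraries each), cells kept for 3 days in 1 µM or 0.01 µM dexamethasone or the vehicle of either dose (3 libraries each), and cells kept for 3 days in untreated medium (3 libraries). The design text of the series asks whether the dose of the stress hormone matters for expression.

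Hydrocortisone is the pharmaceutical name of cortisol, the main human glucocorticoid. It enters cells and binds the glucocorticoid receptor, the product of NR3C1, which is held in the cytoplasm by a chaperone complex built on HSP90 and the co-chaperones FKBP4 and FKBP5. The hormone-bound receptor moves to the nucleus, where it binds palindromic response elements near genes such as FKBP5, TSC22D3 and PER1 and raises their transcription. It also lowers the transcription of other genes, among them many targets of the factors AP-1 and NF-kB. In microglia, glucocorticoids are known for damping inflammatory responses. The enzymes HSD11B1 and HSD11B2 make and remove active hormone inside cells. HSD11B1 was not analysed here, and HSD11B2 had at most 8 counts in any of the 12 libraries and was not tested.

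The 12 libraries held between 11165431 and 24426643 counts. Ribosomal RNA genes took 16.63% to 44.16% of the counts in 11 of them and 91.38% in replicate 1 of the vehicle of 10 µM, which was left with 2104863 counts on other genes. This library enters every net dose effect and every change at 10 µM against vehicle, but not the direct difference between the doses. Counts without it are given for the main comparisons. The microglial label was checked against 24 microglial markers, of which 7 had a row in the table. Their summed level was 88.4 to 100 CPM (counts scaled to a common non-ribosomal total) at 10 µM, 97.9 to 105 in its vehicle, 107 to 115 at 0.01 µM and 103 to 117 in the vehicle of that dose. The receptors CSF1R and TREM2, which define microglia, had medians of 0.326 and 0.266 CPM. The 14 measured fibroblast and pericyte markers summed to 4980 to 5370 CPM at 10 µM, 4950 to 5440 in its vehicle, 4290 to 5000 at 0.01 µM and 4380 to 4830 in the vehicle of that dose. The expression of these cells therefore went against the label, and they are called HMC3 cells throughout.

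Genes changed with the dose in both directions. Of 16816 genes tested, 688 passed an adjusted p of 0.05 in the net dose effect with edgeR's quasi-likelihood test, which is 4.09%. Of these, 291 genes (1.73%) rose and 397 (2.36%) fell, and 94 of the rises and 125 of the falls were at least 2-fold. The median net change over all genes was 0.005 on the log2 scale. Without replicate 1 of the vehicle of 10 µM, 548 genes passed. The 10 µM libraries did not overlap the 0.01 µM libraries for 670 of the 688 genes, against 33.9% of all genes tested. The calls were made from these same libraries, so this is largely set by the calls and is no separate support. Over all genes, 29% had no overlap between 10 µM and its vehicle and 9.2% had none between 0.01 µM and its vehicle. In these bulk libraries, a change in the share of cells that make an RNA and a change in RNA per cell cannot be told apart.

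The comparison without vehicles, 10 µM directly against 0.01 µM, called 2488 genes (14.8%), of which 1127 (6.7%) rose and 1361 (8.09%) fell. The median half-width of its 95% intervals was 0.24 on the log2 scale, against 0.35 for the net dose effect, over 11763 genes whose mean log2 CPM reached 1. All but 39 of the 688 net calls, 649 genes, were also called directly, each with the same direction. Both comparisons use the same 10 µM and 0.01 µM libraries, so this overlap is largely built in.

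The 2 terms of the net effect were very unequal. Against its vehicle, 10 µM changed 2200 genes (13.1%), 937 up (5.57%) and 1263 down (7.51%), and 191 and 225 of these by at least 2-fold. Without replicate 1 of the vehicle the count was 1573. Against its vehicle, 0.01 µM changed 0 genes by edgeR's quasi-likelihood test, and 397 genes had an unadjusted p under 0.05. DESeq2 and limma-voom with sample weights each called 1 gene there, IGFBP3, which encodes a carrier protein of insulin-like growth factors. It fell by 0.38 on the log2 scale at 0.01 µM (adjusted p = 0.192 in edgeR) and was named because of its values.

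**Figure D1:**
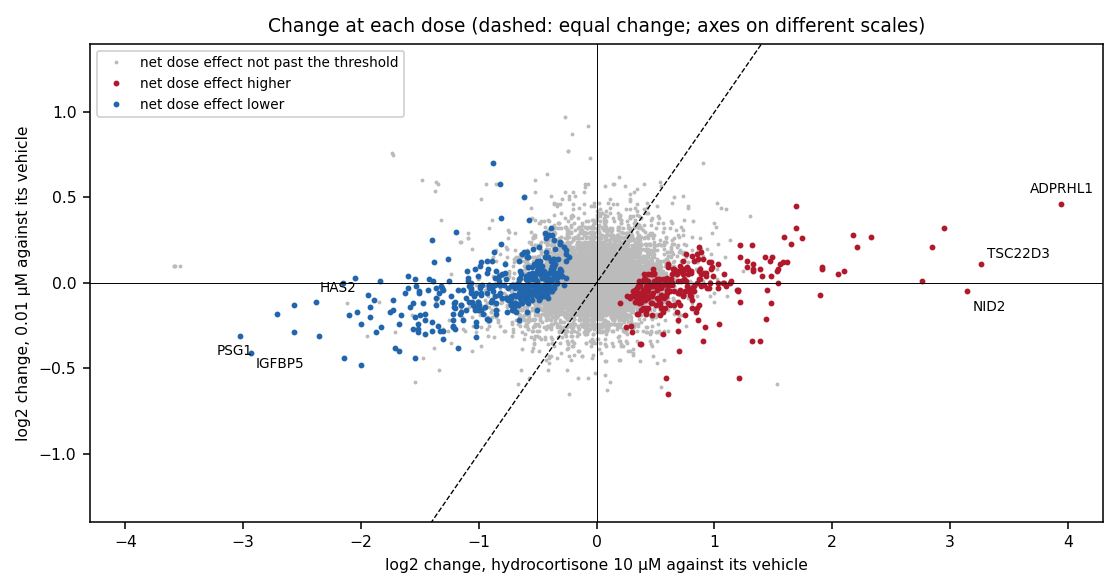
Log2 change of each gene at 10 µM hydrocortisone against its vehicle (x axis) and at 0.01 µM against its vehicle (y axis, which spans a narrower range) for the 11699 genes whose mean log2 CPM over the 12 libraries reached 1. Red and blue points are genes that rose or fell in the net dose effect. The called genes spread along the x axis, from PSG1 and IGFBP5 on the left to ADPRHL1 on the right, and lie close to 0 on the y axis. They lie away from the dashed line of equal change, which is set by the calls, since the net dose effect is the x value minus the y value.

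The lower dose was then read at the genes that the higher dose changed, a pair of comparisons that share no library. The 191 genes at least 2-fold higher at 10 µM had a median change of 1.48 at 10 µM and of 0.08 at 0.01 µM on the log2 scale. At 0.01 µM, 116 of them (60.7%) lay above 0, as did 49.4% of all genes. The 225 genes at least 2-fold lower at 10 µM had a median change of -1.42 at 10 µM and of -0.14 at 0.01 µM. At 0.01 µM, 174 of them (77.3%) lay below 0, as did 50.6% of all genes. Single genes could not be resolved at that size.

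Well-known targets of the receptor rose. The leading one was TSC22D3, which encodes GILZ, a leucine zipper protein that binds NF-kB and AP-1 and mediates part of the anti-inflammatory action of glucocorticoids (GRCh38 chromosome X, 107713221 to 107777342, minus strand). Its promoter is shown because it was the 1 promoter, among those of the 10 largest rises, that held the core of a receptor response element, ACANNNTGT. The window runs from 250 bases before to 50 bases after an annotated start, chrX:107775939-107776238 on the minus strand (RefSeq, GRCh38.p14), with the match in capitals.

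TSC22D3 promoter: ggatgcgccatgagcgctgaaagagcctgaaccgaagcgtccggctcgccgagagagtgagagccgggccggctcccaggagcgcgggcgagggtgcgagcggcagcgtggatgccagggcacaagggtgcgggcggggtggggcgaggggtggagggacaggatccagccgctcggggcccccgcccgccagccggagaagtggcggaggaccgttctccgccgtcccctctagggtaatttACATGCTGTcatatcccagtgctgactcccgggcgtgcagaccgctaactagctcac

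The first letter of the match lies at position -7, with the first base of the transcript at 0, and the same letters lie at position -208 of a second annotated start of TSC22D3. The motif reads the same on both strands. It was found in 28 of 382 promoter windows (7.33%) of genes that rose in the net dose effect, in 22 of 474 windows (4.64%) of genes that fell, in 3.05% of the 15926 windows of all genes tested, and in 5.37% of the whole table. A single arm of the element, AGAACA or TGTTCT, was in 9.42% of windows of genes that rose, 11.6% of those that fell, 9.68% of those tested and 14.8% of the whole table. The full palindrome of both arms was in 0 windows of the genes tested. Promoters of 6 of the 10 largest rises and 7 of the 10 largest falls were in the table, some with several starts. A match is a description of these letters and not of binding.

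TSC22D3 was measured at 32.4, 43.1 and 38.6 CPM in the libraries at 10 µM, against 4.35, 3.40 and 4.17 CPM in their vehicle. The libraries at 0.01 µM had it at 4.18, 3.55 and 3.93 CPM, against 3.11, 3.86 and 3.86 CPM in the vehicle of that dose. Here and below, CPM of single genes are relative to the TMM-scaled library size. The 10 µM libraries stood far above the other 9, which overlapped each other. The rule that picked the largest rises and falls required no overlap of 10 µM with 0.01 µM or with the vehicle of 10 µM. The net dose effect was 3.15 ± 0.35 on the log2 scale (SE, 3 libraries a group), an 8.91-fold rise with an edgeR adjusted p of 3.44e-07.

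FKBP5, whose protein lowers the hormone affinity of the receptor, was at 71.6, 89.9 and 83.3 CPM at 10 µM, against 32.3, 32.0 and 40.4 CPM in the vehicle of that dose. With 0.01 µM it was at 27.6, 30.7 and 37.8 CPM, against 36.0, 35.3 and 32.8 CPM in the vehicle. The 10 µM libraries did not overlap any other, and the 0.01 µM libraries lay on both sides of their vehicle. Its net dose effect was 1.34 ± 0.18 on the log2 scale (SE; edgeR adjusted p = 3.47e-06), a 2.53-fold rise.

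PER1, a repressor of the circadian clock that the receptor also drives, was at 26.4, 29.8 and 26.8 CPM at 10 µM, against 6.25, 4.90 and 8.83 CPM in its vehicle. In the lower dose group it was at 6.30, 5.75 and 9.40 CPM, against 5.73, 6.42 and 8.61 CPM in the vehicle. Only the 10 µM group stood apart, with a net rise of 2.00 ± 0.30 on the log2 scale (SE; edgeR adjusted p = 3.9e-05). KLF9, a zinc finger repressor, was at 10.3, 10.0 and 10.3 CPM at 10 µM and at 2.50, 3.38 and 3.51 CPM at 0.01 µM, with a net rise of 1.45 ± 0.24 (SE; edgeR adjusted p = 3.89e-05). DUSP1, a phosphatase of the MAP kinases and a textbook target, was at 185, 242 and 204 CPM at 10 µM and at 182, 159 and 176 CPM at 0.01 µM. These groups did not overlap, but its net change of 0.65 (95% interval -0.32 to 1.63) did not pass the test (edgeR adjusted p = 0.564).

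In the list of receptor targets, 13 of 36 tested genes rose in the net dose effect and 0 fell, with a median net change of 0.54 on the log2 scale. This list and those below were chosen with earlier results of these data known, so their counts are descriptions and not tests. Besides those above, CRISPLD2, NFKBIA, BIRC3, ANGPTL4, SLC7A2, TIPARP, CPEB4, IRS2 and GPX3 rose. NFKBIA, the inhibitor that keeps NF-kB in the cytoplasm, was at 23.1, 21 and 19.3 CPM at 10 µM and at 10.2, 10.0 and 8.98 CPM at 0.01 µM, and rose by 1.24 ± 0.19 net (SE; edgeR adjusted p = 1.02e-05). SLC7A2, a transporter of arginine, rose by 1.07 ± 0.13 net (SE; edgeR adjusted p = 1.74e-07). At 0.01 µM against its vehicle the median of the same 36 genes was 0.02 and 0 were called.

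**Figure D2:**
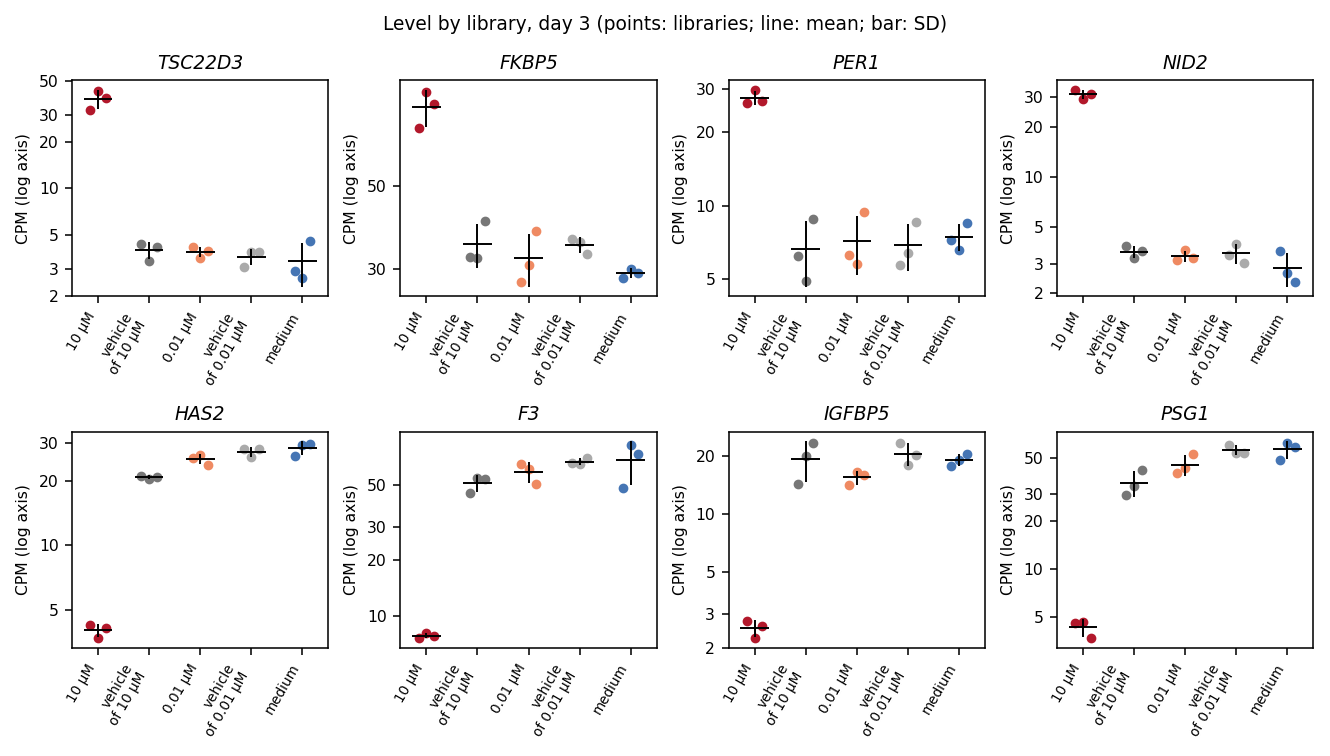
Level of 8 genes in each day 3 library (points), with group means (lines) and SD (bars), in CPM on a log axis, for 10 µM hydrocortisone, its vehicle, 0.01 µM, its vehicle and untreated medium. In every panel the 10 µM libraries lie apart from the other 4 groups, above them for TSC22D3, FKBP5, PER1 and NID2 and below them for HAS2, F3, IGFBP5 and PSG1. All but FKBP5 were picked by a rule that required no overlap of 10 µM with 0.01 µM or with the vehicle of 10 µM. PSG1, HAS2 and F3 also lie lower in the vehicle of 10 µM than in that of 0.01 µM, differences that did not pass the test (edgeR adjusted p = 0.0661, 0.241 and 0.34).

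The receptor gene NR3C1 was at 60.5, 59.2 and 67.7 CPM at 10 µM and at 71.4, 75 and 76.0 CPM at 0.01 µM, groups that did not overlap. Its net change of -0.29 (95% interval -0.54 to -0.05) did not pass the test (edgeR adjusted p = 0.207), while the direct difference of -0.25 did (edgeR adjusted p = 0.0489). In the list of the receptor, its chaperones and steroid enzymes, 2 of 22 tested genes rose and 3 fell in the net dose effect (median 0.05). The 2 that rose were FKBP5 and ABCB1, an efflux pump that carries glucocorticoids out of cells, which rose by 1.25 ± 0.18 (SE; edgeR adjusted p = 3.68e-06). The 3 that fell were the HSP90 genes HSP90AA1 and HSP90AB1 and the co-chaperone gene FKBP4. FKBP4 was at 56.4, 54.3 and 54.3 CPM at 10 µM and at 81.8, 76.4 and 75.9 CPM at 0.01 µM, and fell by 0.46 on the log2 scale net of vehicle (SE 0.11; edgeR adjusted p = 0.00648).

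ADPRHL1 and NID2, which are outside the target list, ranked ahead of TSC22D3 among the 10 largest rises. Among genes whose mean log2 CPM reached 1, the largest net rise was that of ADPRHL1, a member of the ADP-ribosylhydrolase family known from heart muscle (GRCh38 chromosome 13, 113399610 to 113453524, minus strand). It was at 15.7, 14 and 16.1 CPM at 10 µM, against 1.09, 1.08 and 0.834 CPM in its vehicle. At 0.01 µM it was at 1.52, 1.86 and 1.54 CPM, against 1.28, 0.988 and 1.31 CPM in the vehicle. All 3 libraries at 0.01 µM lay above their vehicle, though that change of 0.46 ± 0.28 (SE) did not pass the test. The net rise was 3.47 ± 0.41 on the log2 scale (SE; edgeR adjusted p = 3.3e-07), or 11.1-fold.

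NID2 encodes nidogen-2, which links laminin and collagen IV in basement membranes (GRCh38 chromosome 14, 52004803 to 52069228, minus strand). It was at 33.1, 29.4 and 31.3 CPM at 10 µM, against 3.81, 3.24 and 3.58 CPM in its vehicle. With 0.01 µM it was at 3.15, 3.61 and 3.23 CPM, against 3.39, 3.95 and 3.03 CPM in the vehicle. The spread between libraries was small in all 4 groups, and the net rise of 3.2 ± 0.20 on the log2 scale (SE) had the smallest edgeR adjusted p of all genes, 1.96e-15.

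CRISPLD2, a secreted protein that binds lipopolysaccharide, was at 78.1, 73.9 and 79.9 CPM at 10 µM and at 12, 11.5 and 13.4 CPM at 0.01 µM, with a net rise of 2.64 ± 0.24 (SE; edgeR adjusted p = 2.33e-09). ABCA8, a lipid transporter, was at 81.9, 82.7 and 86.1 CPM at 10 µM and at 15.2, 16.6 and 13.8 CPM at 0.01 µM, with a net rise of 2.63 ± 0.17 (SE; edgeR adjusted p = 2.2e-15). FAT4, a giant cadherin of planar polarity and Hippo signalling, was at 45.0, 44.7 and 50.9 CPM at 10 µM and at 9.01, 8.91 and 12.5 CPM at 0.01 µM, with a net rise of 1.99 ± 0.19 (SE; edgeR adjusted p = 2.5e-10). In all 3 genes the 10 µM libraries lay above every library of 0.01 µM hydrocortisone, of both vehicles and of untreated medium, none of which exceeded 16.6 CPM. The level was not particular to hydrocortisone. With 1 µM dexamethasone the means were 79.3 CPM for CRISPLD2, 118 CPM for ABCA8 and 47.1 CPM for FAT4.

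The remaining large rises were CERNA2, a long non-coding RNA, with 2.75 ± 0.23 on the log2 scale (SE; edgeR adjusted p = 7.7e-12), the transcribed pseudogene ENSG00000285417 on chromosome 1, with 2.06 ± 0.28 (SE; edgeR adjusted p = 7.74e-07), and TLR4. TLR4, the receptor for lipopolysaccharide, was at 9.04, 8.70 and 8.97 CPM at 10 µM, against 0.544, 2.57 and 2.84 CPM in its vehicle. In the lower dose group it was at 3.31, 2.88 and 2.46 CPM, against 2.22, 2.69 and 3.32 CPM in the vehicle. The lowest value, 0.544 CPM, was 2 counts in the library of mostly ribosomal RNA. The net rise was 2.03 ± 0.40 (SE; edgeR adjusted p = 0.00127) and 1.64 without that library, still past the threshold. The direct difference, which does not use it, was 1.62.

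Genes of the extracellular matrix moved both ways. In the list of hyaluronan and matrix genes, 6 of 32 tested genes rose and 6 fell in the net dose effect, with a median of -0.19. HAS2, the main synthase of the matrix sugar hyaluronan, was at 4.22, 3.68 and 4.11 CPM at 10 µM, against 21.2, 20.5 and 21 CPM in its vehicle. The libraries at 0.01 µM had it at 25.7, 26.6 and 23.8 CPM, against 28.2, 25.8 and 28.3 CPM in the vehicle. Values at 10 µM were the lowest of the 4 groups, and the net change was -2.27 ± 0.19 (SE; edgeR adjusted p = 7.7e-12), a 4.83-fold fall. HAS3, a second synthase, and CD44, the hyaluronan receptor of the cell surface, fell by 1.71 and by 1.31 (edgeR adjusted p = 0.00235 and 4.39e-05).

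THBS2, an antiangiogenic matrix protein, fell by 0.87 on the log2 scale (SE 0.11; edgeR adjusted p = 1.32e-07), and the matrix genes TNC and LAMB1 fell by 0.77 and by 0.63 (edgeR adjusted p = 0.0401 and 1.83e-05). The 6 that rose were NID2, DCN, the fibrillin genes FBN1 and FBN2 and the collagen genes COL12A1 and COL5A1. FBN1, the main structural protein of microfibrils, rose by 1.36 (edgeR adjusted p = 1.06e-06). DCN, the small proteoglycan decorin, had 25, 60 and 53 counts at 10 µM, against 1, 0 and 2 in its vehicle, and 2, 1 and 0 counts at 0.01 µM, against 4, 3 and 4 in the vehicle. The direction is plain from these counts, but so few counts outside the 10 µM group give no usable fold. ABI3BP, a matrix protein outside the list, was at 2.83, 2.09 and 2.25 CPM at 10 µM and at 9.94, 11.7 and 12.2 CPM at 0.01 µM, with a net change of -1.91 ± 0.22 (SE; edgeR adjusted p = 4.4e-08).

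Of 16 tested coagulation and plasminogen genes, 6 fell and 1 rose in the net dose effect (median -0.12). F3 encodes tissue factor, which starts the extrinsic clotting pathway (GRCh38 chromosome 1, 94529225 to 94541800, minus strand). It was at 7.65, 8.11 and 7.86 CPM at 10 µM, against 45.4, 54.9 and 53.9 CPM in its vehicle. At 0.01 µM it was at 64.8, 61.5 and 50.8 CPM, against 65.5, 65.2 and 70.2 CPM in the vehicle. All 3 libraries at 10 µM were well below the rest, with a net change of -2.52 ± 0.21 (SE; edgeR adjusted p = 4.7e-10), a 5.75-fold fall.

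SERPINE2, the thrombin and plasminogen activator inhibitor nexin-1, was at 4.94, 5.27 and 5.08 CPM at 10 µM and at 12.8, 14.1 and 12.8 CPM at 0.01 µM, with a net change of -1.47 ± 0.15 (SE; edgeR adjusted p = 2.63e-09). PLAUR, the urokinase receptor, fell by 1.27 (edgeR adjusted p = 8.97e-07), and F2RL2, TFPI and PROCR, a thrombin receptor, the tissue factor pathway inhibitor and the protein C receptor, fell by 1.45, by 0.57 and by 0.45 (edgeR adjusted p = 0.000293, 0.0309 and 0.0269).

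Among growth factor binding proteins the changes went in both directions. In the insulin-like growth factor list, 3 of 18 tested genes rose and 4 fell (median 0.03). IGFBP5, a binding protein that also attaches to matrix, was at 2.77, 2.25 and 2.61 CPM at 10 µM, against 14.4, 20.1 and 23.5 CPM in its vehicle. In the lower dose group it was at 14.1, 16.6 and 16 CPM, against 23.6, 18 and 20.4 CPM in the vehicle. Values at 10 µM were again the lowest, and the net change was -2.52 ± 0.26 (SE; edgeR adjusted p = 3.6e-08). PAPPA, a protease that frees the growth factor by cutting its binding proteins, fell by 1.00 (edgeR adjusted p = 0.000224), while IGFBP7 and STC2, an inhibitor of PAPPA, rose by 1.07 and 0.52 (edgeR adjusted p = 0.000292 and 0.0032).

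The activin inhibitor FST and the activin subunit INHBA both fell. FST, or follistatin, binds and neutralises activin (GRCh38 chromosome 5, 53480409 to 53487134, plus strand). It was at 3.07, 3.49 and 3.31 CPM at 10 µM, against 13.3, 12.9 and 17.6 CPM in its vehicle. The libraries at 0.01 µM had it at 25.4, 28.8 and 22.6 CPM, against 25.8, 23.0 and 28 CPM in the vehicle. The vehicle of 10 µM thus lay between, and the net change of -2.14 ± 0.29 (SE; edgeR adjusted p = 8.41e-06) was smaller than the direct difference of -2.95. INHBA, the subunit of activin A, was at 11.4, 11.4 and 11.1 CPM at 10 µM and at 31.2, 34.4 and 34.7 CPM at 0.01 µM, with a net change of -1.25 ± 0.15 (SE; edgeR adjusted p = 4.47e-08).

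In the list of TGF-beta, activin and YAP or SRF response genes, 7 of 33 tested genes rose and 6 fell (median -0.11). TGFBI, a matrix protein induced by TGF-beta, was at 50.4, 52.1 and 47.9 CPM at 10 µM and at 124, 121 and 127 CPM at 0.01 µM, with a net change of -1.44 ± 0.14 (SE; edgeR adjusted p = 3.43e-10). The rises included the receptors TGFBR1 and TGFBR2, the latent TGF-beta binding proteins LTBP1 and LTBP2, and FSTL3, another activin binder. LTBP1 rose by 1.18 and FSTL3 by 0.73 (edgeR adjusted p = 0.0183 and 0.000112).

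Of the immediate early and MAP kinase feedback genes, 0 of 31 tested genes rose and 3 fell, DUSP4, FOSL1 and MYC (median -0.06). FOSL1, an AP-1 subunit, was at 17.4, 20.5 and 18.6 CPM at 10 µM and at 47.2, 50.1 and 59.6 CPM at 0.01 µM, with a net change of -1.20 ± 0.15 (SE; edgeR adjusted p = 1.41e-07). DUSP4, a phosphatase of ERK, was at 4.46, 4.71 and 4.86 CPM at 10 µM and at 16.7, 13.9 and 14.5 CPM at 0.01 µM, with a net change of -1.44 ± 0.25 (SE; edgeR adjusted p = 0.000194). RGS4, which switches off G protein signals, was at 0.602, 0.530 and 0.663 CPM at 10 µM and at 5.00, 5.30 and 4.07 CPM at 0.01 µM, with a net change of -2.28 ± 0.54 (SE; edgeR adjusted p = 0.01).

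All 10 tested pregnancy-specific glycoproteins fell in the net dose effect, with a median of -1.95. These are secreted members of the immunoglobulin superfamily made mainly by the placenta, and their genes lie side by side on chromosome 19. The sequences are near-identical, so the counting may have shared reads between them and the 10 are not independent. PSG1 was at 4.58, 4.65 and 3.67 CPM at 10 µM, against 29.6, 33.4 and 42.1 CPM in its vehicle (GRCh38 chromosome 19, 42866464 to 42879822, minus strand). With 0.01 µM it was at 40.2, 43.4 and 53.5 CPM, against 61.2, 54.0 and 54.5 CPM in the vehicle. The 10 µM libraries were far below the others, with a net change of -2.72 ± 0.22 (SE; edgeR adjusted p = 4.04e-10), the largest fall. PSG11 was at 0.663, 0.874 and 0.530 CPM at 10 µM and at 4.56, 4.17 and 5.05 CPM at 0.01 µM, with a net change of -2.05 ± 0.31 (SE; edgeR adjusted p = 9.96e-06). The smallest net change of the 10 was -1.24, in PSG4.

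The keratin KRT34, otherwise a protein of the hair shaft, was at 1.39, 1.5 and 0.972 CPM at 10 µM and at 6.62, 5.25 and 5.89 CPM at 0.01 µM, with a net change of -2.08 ± 0.30 (SE; edgeR adjusted p = 4.77e-06). KRTAP2-3, a keratin-associated protein with near-identical neighbours, was at 1.45, 2.87 and 1.24 CPM at 10 µM and at 9.34, 12.5 and 13.8 CPM at 0.01 µM, with a net change of -2.45 ± 0.38 (SE; edgeR adjusted p = 5.86e-05). In both genes the 10 µM libraries lay below all other day 3 libraries of the 4 groups.

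**Figure D3:**
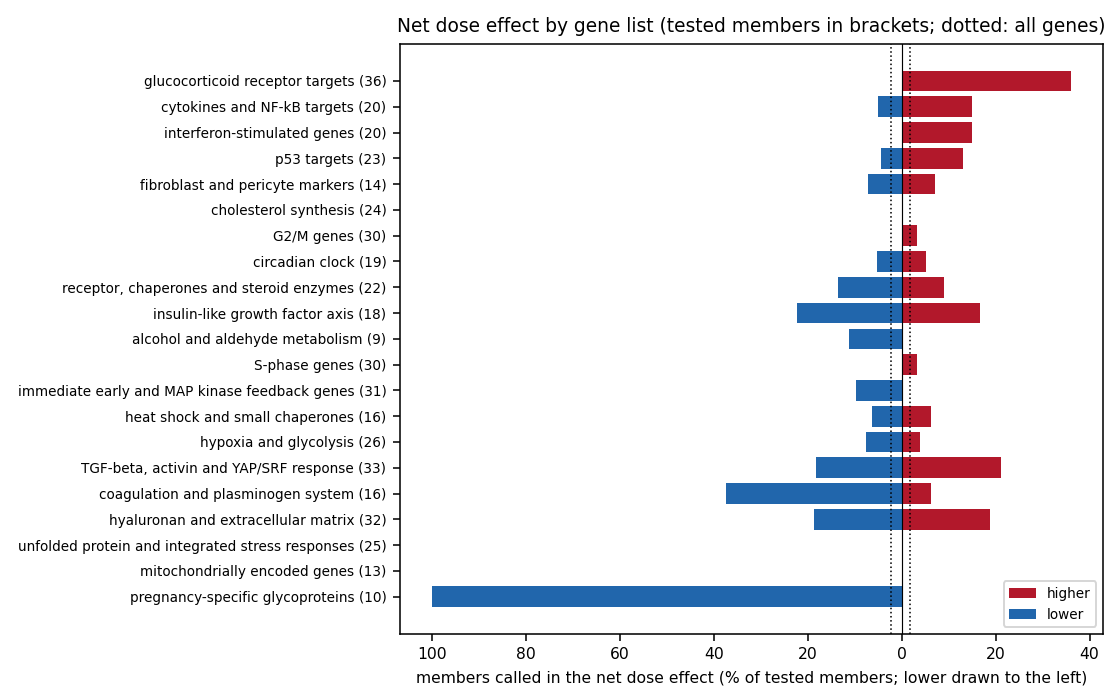
Share of tested members of each gene list that rose (red, to the right) or fell (blue, to the left) in the net dose effect, in percent of tested members, for lists with at least 9 tested members. The receptor targets (13 of 36) and the pregnancy-specific glycoproteins (10 of 10) moved in 1 direction, while the matrix list (6 up, 6 down) and the TGF-beta list (7 up, 6 down) moved in both. Dotted lines mark the shares among all genes, 1.73% up and 2.36% down. The lists were chosen with earlier results of these data known, so their shares are a description and not a test.

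Among cytokines and NF-kB targets, 3 of 20 tested genes rose, NFKBIA, BIRC3 and TLR4, and 1 fell (median 0.33). These 3 encode regulators of the pathway and not cytokines. The gene that fell was IL11, a cytokine of the IL-6 family, at 6.93, 7.71 and 7.60 CPM at 10 µM and at 31.4, 25.2 and 28 CPM at 0.01 µM, with a net change of -1.77 ± 0.32 (SE; edgeR adjusted p = 0.000766). Among interferon-stimulated genes, 3 of 20 rose and 0 fell (median 0.30). They were IFIT1, IFIT2 and IFIT3, antiviral RNA-binding proteins, at low levels. IFIT3 was at 6.27, 6.93 and 6.23 CPM at 10 µM and at 4.02, 2.54 and 2.39 CPM at 0.01 µM, with a net rise of 1.67 ± 0.37 (SE; edgeR adjusted p = 0.00368). IFIT1 and IFIT2 rose by 1.24 and 1.25 (edgeR adjusted p = 0.0473 and 0.0275), and without replicate 1 of the vehicle of 10 µM both missed the threshold (edgeR adjusted p = 0.0891 and 0.0541).

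Of 23 tested p53 targets, 3 rose in the net dose effect, MDM2, TP53I3 and DDB2, and 1 fell, PLK2 (median 0.26). Over 23 alternatives the members called ranged from 2 to 8, and DDB2 lost its call in 6. MDM2, the ubiquitin ligase that degrades p53, was at 169, 204 and 210 CPM at 10 µM and at 100, 105 and 106 CPM at 0.01 µM, with a net rise of 0.84 ± 0.13 (SE; edgeR adjusted p = 7.7e-06). Directly between the doses, 15 of the 23 rose and 1 fell, among 6.7% of all genes that rose. CDKN1A, the cell cycle inhibitor p21, was 0.98 higher directly (edgeR adjusted p = 2.24e-09), 0.52 higher in the vehicle of 10 µM than in that of 0.01 µM (edgeR adjusted p = 0.0211), and its net change of 0.46 did not pass (edgeR adjusted p = 0.0733).

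The metallothioneins MT1E and MT2A, zinc-binding proteins that glucocorticoids induce, rose by 0.75 and 0.50 (edgeR adjusted p = 0.00647 and 0.000145), as 2 of 4 tested genes of their family, whose close sequences may share reads (median 0.55). Of 19 clock genes, PER1 rose and NR1D2, a nuclear receptor of the clock, fell by 0.54 (edgeR adjusted p = 0.0149; median 0.08). Of 16 heat shock genes, CRYAB, a small chaperone, rose by 1.49 and HSPD1, the mitochondrial chaperonin, fell by 0.39 (edgeR adjusted p = 0.000626 and 0.00667; median -0.07). Of 26 hypoxia and glycolysis genes, PFKFB4 rose and HK2 and NDRG1 fell (median -0.07), and NDRG1 did not differ past the threshold directly (-0.07, edgeR adjusted p = 0.762) and lost its net call in 9 of 23 alternatives.

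The cell cycle lists had a share of calls near the 4.09% of all genes. Of 30 S-phase and 30 G2/M genes, 1 each rose, GINS1 by 0.49 and KIF11 by 0.32 (edgeR adjusted p = 0.00613 and 0.0349), and KIF11 lost its call in 13 of 23 alternatives. The lists had medians of -0.05 and 0.10. Of the 24 cholesterol synthesis genes and the 25 genes of the unfolded protein response and the integrated stress response, 0 passed, with medians of 0.17 and -0.20. Of 9 tested genes of alcohol and aldehyde metabolism, ALDH1B1 fell by 0.37 (edgeR adjusted p = 0.0408; median -0.05), a call lost in 10 of 23 alternatives. The 13 mitochondrially encoded genes had a median net change of -0.65 with 0 called, a median direct difference of 0.01 and a median difference between the vehicles of 0.58. Among cell type markers, DCN and the astrocyte glutamate transporter SLC1A3 rose, VIM fell, and 0 of the tested microglial, neuronal, oligodendrocyte and endothelial markers passed in the net dose effect, with medians of -0.09, -0.51, -0.41 and -0.33.

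The vehicles of the 2 doses were themselves compared, because their difference enters the net dose effect with the opposite sign. Of the 16816 genes, 17 (0.101%) differed, 9 higher (0.0535%) and 8 lower (0.0476%) in the vehicle of 10 µM. Without replicate 1 of that vehicle 1 gene was called, and without its replicate 3 the count was 156. IGFBP3 was at 101, 102 and 98.7 CPM in the vehicle of 10 µM, against 72.4, 71.2 and 63.5 CPM in the vehicle of 0.01 µM, a difference of 0.54 ± 0.08 (SE; edgeR adjusted p = 0.000169). With hormone it was at 45.4, 41.5 and 45.9 CPM at 10 µM and at 51.8, 53.4 and 54.0 CPM at 0.01 µM, and in untreated medium at 56.9, 59.5 and 58.8 CPM. Its net change of -0.80 (SE 0.11; edgeR adjusted p = 9.27e-07) was thus larger than the direct difference of -0.26 (edgeR adjusted p = 0.0145).

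ABCA1, the cholesterol efflux pump, was at 22, 24.7 and 33.0 CPM in the vehicle of 10 µM and at 40.0, 41.4 and 37.8 CPM in that of 0.01 µM. AOX1, an aldehyde oxidase, was at 7.07, 8.22 and 8.68 CPM in the vehicle of 10 µM and at 12.2, 12.1 and 11.8 CPM in that of 0.01 µM. For AOX1 the vehicle of 10 µM lay below every library of both hydrocortisone doses, of the other vehicle and of untreated medium. For ABCA1 it overlapped untreated medium, at 31.7, 35.9 and 38.3 CPM, but none of the other groups just named. Their net rises of 0.98 and 1.22 (edgeR adjusted p = 1.3e-06 and 4.28e-08) stood beside direct differences of 0.40 and 0.63 (edgeR adjusted p = 0.00212 and 6.23e-06). COL5A1, a fibrillar collagen, was higher in the vehicle of 10 µM by 0.46, and its net rise of 0.72 was smaller than its direct difference of 1.18 (edgeR adjusted p = 1.21e-05 and 1.3e-15). HAUS7, a subunit of the augmin complex, and RAD52, a DNA repair protein, named because of their values, were called in the net dose effect (2.76 and 0.91, edgeR adjusted p = 0.00428 and 0.0308) but not directly (0.36 and 0.07, edgeR adjusted p = 0.651 and 0.857). SBF2-AS1 was 1.06 lower in the vehicle of 10 µM on the log2 scale, and reads of this antisense RNA and of its partner may not be separated, since the sources used here do not say whether counting used strand.

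**Figure D4:**
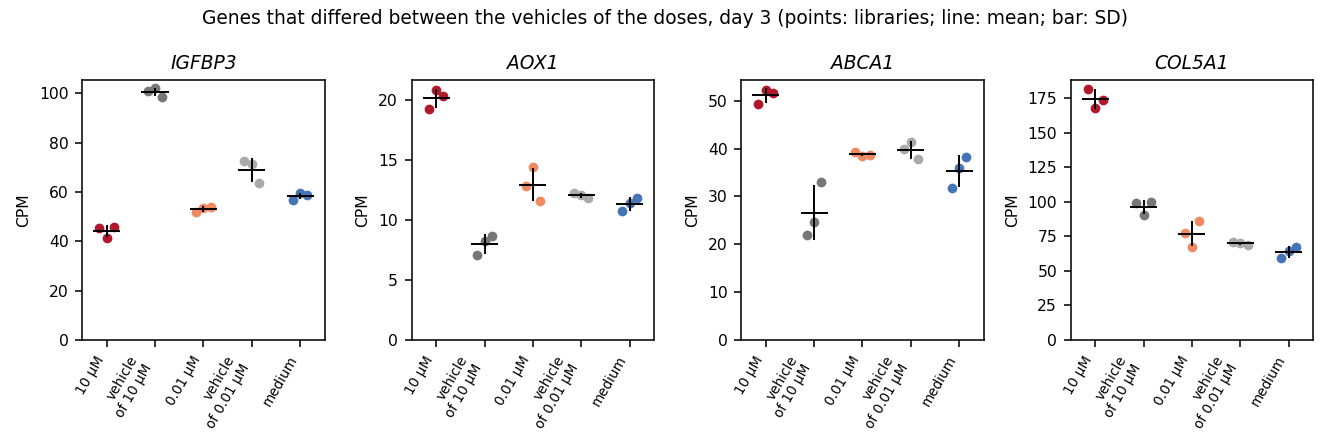
Level of 4 genes that differed between the vehicles in each day 3 library (points) of both hydrocortisone doses, their vehicles and untreated medium, with group means (lines) and SD (bars), in CPM. The vehicle of 10 µM stands above the vehicle of 0.01 µM for IGFBP3 and COL5A1 and below it for AOX1 and ABCA1.

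The dose effect of dexamethasone was set beside that of hydrocortisone. Dexamethasone is a synthetic glucocorticoid that differs from hydrocortisone by a fluorine, an extra methyl group and an extra ring double bond. Its high dose was 1 µM and not 10 µM, so the values are given side by side only. Between 1 and 0.01 µM dexamethasone, net of vehicle, 8 genes (0.0476%) passed, 3 up (0.0178%) and 5 down (0.0297%), against the 688 of hydrocortisone. Leaving out 1 library gave counts between 4 and 18, the highest without replicate 3 of 0.01 µM dexamethasone. They were NID2, LPIN3, ALCAM, HAS2, PAPPA, ST6GAL2, MAP3K7CL and THBS2, named because of their values, and all 8 were also called for hydrocortisone with the same sign. NID2 rose by 1.29 ± 0.20 with the dexamethasone dose and by 3.2 ± 0.20 with the hydrocortisone dose (SE; edgeR adjusted p = 0.000477 and 1.96e-15). HAS2 changed by -1.25 ± 0.19 with the dexamethasone dose and by -2.27 ± 0.19 with the hydrocortisone dose (SE; edgeR adjusted p = 0.000477 and 7.7e-12). For TSC22D3 the values were 0.94 ± 0.34 and 3.15 ± 0.35 (SE), and the dexamethasone value did not pass (edgeR adjusted p = 0.614).

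The steroids could be compared at 1 matched dose, 0.01 µM, each net of its own vehicle, and this was the 1 pair tested. There 838 genes (4.98%) differed, 348 higher (2.07%) and 490 lower (2.91%) with dexamethasone. NID2 was at 28.1, 28.6 and 24.5 CPM with 0.01 µM dexamethasone and at 3.15, 3.61 and 3.23 CPM with 0.01 µM hydrocortisone, a net difference of 3.38 ± 0.20 (SE; edgeR adjusted p = 2.63e-16). TSC22D3 was at 29.2, 33.6 and 35.8 CPM with dexamethasone and at 4.18, 3.55 and 3.93 CPM with hydrocortisone, a net difference of 2.94 ± 0.35 (SE; edgeR adjusted p = 1.47e-06). In both genes the groups were far apart.

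FKBP5 was at 78.5, 75.8 and 80.5 CPM with 0.01 µM dexamethasone and at 27.6, 30.7 and 37.8 CPM with 0.01 µM hydrocortisone, a net difference of 1.34 ± 0.18 (SE; edgeR adjusted p = 4.05e-06). Of the receptor targets, 12 of 36 were higher with dexamethasone and 0 lower, and 9 of the 10 pregnancy-specific glycoproteins were lower. TLR4, PAPPA and TXNIP were not called in this pair, with net differences of 1.27 (95% interval 0.45 to 2.09), -0.05 (-0.41 to 0.32) and 1.08 (0.20 to 1.96) and edgeR adjusted p of 0.062, 0.94 and 0.178. This test shares the 0.01 µM hydrocortisone libraries and their vehicle with the dose effect, so the overlap of their calls is not given. Replicate 3 of 0.01 µM dexamethasone and replicate 1 of its vehicle held 94.86% and 82.49% ribosomal counts, and without all 7 libraries of the series above 75% the count was 695.

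After washout fewer genes differed between the doses. At 3 days of treatment, cells of each flask were reseeded in equal number without hormone, and on day 6 the direct difference between cells first kept in 10 µM and in 0.01 µM was called for 281 genes (1.67%), 88 up (0.523%) and 193 down (1.15%). Both vehicles of day 6 had 1 library each, so no vehicle was subtracted. Of the 281 genes, 149 (53%) had also been called directly on day 3 with the same sign, which is 5.99% of the 2488 calls of that day, and 9 with the opposite sign. Of all genes tested, 14.8% were called directly on day 3, 6.7% up and 8.09% down. Cells of day 6 came from flasks treated until day 3, so the days may not be independent, and the fit did not take this into account. The difference between the days was itself called for 1098 genes (6.53%), 450 upward (2.68%) and 648 downward (3.85%), and for 677 without replicate 3 of 0.01 µM on day 6 and 692 without replicate 2 of 0.01 µM on day 3. The day 6 count was 82 without replicate 3 of 0.01 µM, 104 and 128 without replicates 3 and 4 of 10 µM, and 460 without the libraries above 75% ribosomal counts, which included replicate 2 of 0.01 µM.

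TSC22D3 was at 3.55, 5.19 and 4.09 CPM on day 6 after 10 µM and at 1.45, 4.23 and 3.74 CPM after 0.01 µM, groups that overlapped, with a difference of 0.43 ± 0.24 (SE; edgeR adjusted p = 0.464). PER1 was at 7.58, 7.88 and 6.66 CPM after 10 µM and at 7.23, 9.71 and 7.93 CPM after 0.01 µM, with a difference of -0.17 ± 0.21 (SE; edgeR adjusted p = 0.809). FKBP5 was at 41.4, 34.5 and 46.1 CPM after 10 µM and at 32.9, 22.8 and 31.2 CPM after 0.01 µM, groups that did not overlap, with a difference of 0.49 ± 0.13 (SE; edgeR adjusted p = 0.0388). NID2 was still higher, at 5.72, 6.08 and 6.42 CPM after 10 µM and at 3.07, 3.80 and 3.43 CPM after 0.01 µM (0.82 ± 0.14, SE; edgeR adjusted p = 0.000327).

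Other genes were called on both days or on day 6 alone. CRISPLD2 was at 14.4, 18.2 and 18.1 CPM after 10 µM and at 5.97, 6.35 and 7.58 CPM after 0.01 µM (1.35 ± 0.17, SE; edgeR adjusted p = 1.03e-05). TXNIP, an inhibitor of thioredoxin and of glucose uptake, was at 36.1, 53.5 and 59.1 CPM after 10 µM and at 13.9, 20.6 and 23.5 CPM after 0.01 µM (1.36 ± 0.31, SE; edgeR adjusted p = 0.0173). ARRDC4, an arrestin related to TXNIP, ROR1, a receptor of WNT5A, and NUDT18, a nucleotide hydrolase, were higher by 1.07, 1.23 and 0.99 (edgeR adjusted p = 0.00326, 0.00015 and 0.0148). The direct day 3 differences were 2.65 for CRISPLD2, 1.81 for TXNIP, 0.73 for ARRDC4, 1.74 for ROR1 and 0.54 for NUDT18, of which that of NUDT18 had not passed (edgeR adjusted p = 0.119).

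FST, INHBA and IGFBP5 were lower after 10 µM on day 6 too, by less than on day 3. FST was at 14.4, 12.8 and 13.5 CPM after 10 µM and at 32.0, 47.5 and 41.0 CPM after 0.01 µM (-1.57 ± 0.21, SE; edgeR adjusted p = 3.71e-05). INHBA was at 17.1, 19.1 and 21 CPM after 10 µM and at 40.2, 39.9 and 40.6 CPM after 0.01 µM (-1.08 ± 0.11, SE; edgeR adjusted p = 3.11e-09), the smallest adjusted p of that day. IGFBP5 was at 12.7, 9.54 and 11.7 CPM after 10 µM and at 24.2, 32.3 and 28.9 CPM after 0.01 µM (-1.34 ± 0.19, SE; edgeR adjusted p = 3.84e-05). These 3 genes had no overlap between the groups on either day. FST and IGFBP5 were picked by rules that required this on both days, so for them it is no separate support.

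SPRY2, a feedback inhibitor of receptor tyrosine kinase signals, was at 2.49, 2.95 and 2.91 CPM after 10 µM and at 5.61, 7.81 and 7.27 CPM after 0.01 µM (-1.31 ± 0.22, SE; edgeR adjusted p = 0.000178), and its direct difference on day 3 was -0.74 (edgeR adjusted p = 0.0124). COL13A1, a transmembrane collagen, and ABI3BP were lower by 1.28 and 1.25 on the log2 scale on day 6 (edgeR adjusted p = 0.000775 and 2.3e-06). The test of the difference between the days did not pass for COL13A1, SPRY2, TXNIP, ROR1, ARRDC4 and NUDT18, nor for TLR4 (adjusted p = 0.985, 0.299, 0.636, 0.318, 0.615, 0.5 and 0.4 in edgeR). Of the pregnancy-specific glycoproteins, 1 of 10 was called on day 6, though the median difference of the 10 was -0.63, against a direct median of -2.53 on day 3. PSG1 was at 33.3, 22.2 and 27.4 CPM after 10 µM and at 53.2, 63.3 and 66.9 CPM after 0.01 µM (-1.15 ± 0.16, SE; edgeR adjusted p = 3.98e-05).

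**Figure D5:**
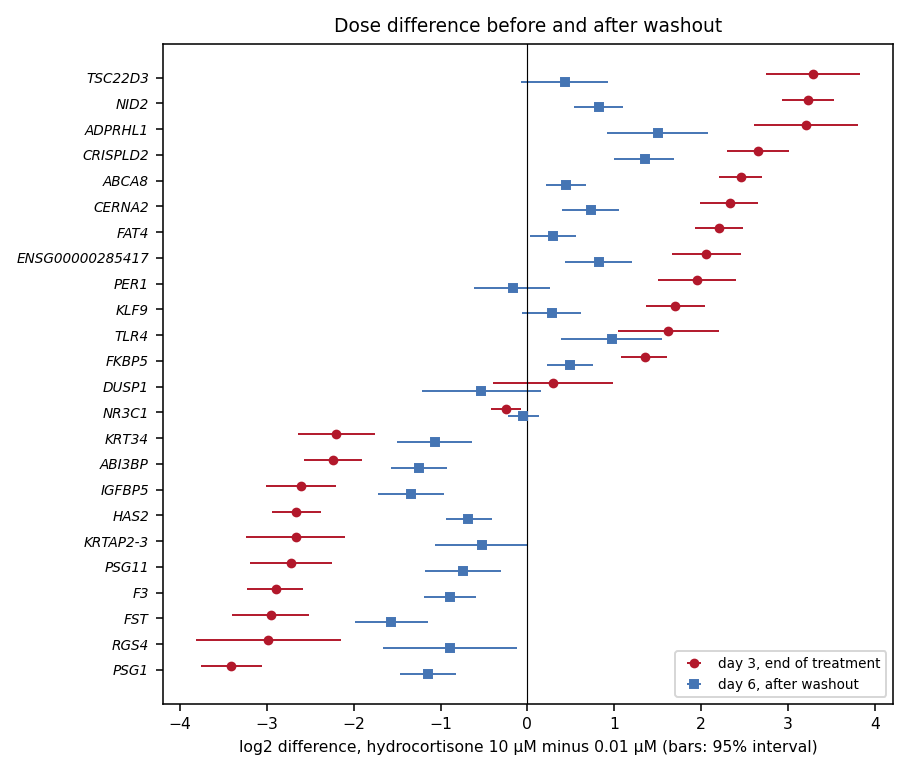
Log2 difference between 10 µM and 0.01 µM hydrocortisone (x axis, bars are 95% intervals) on day 3 (red) and on day 6 after washout (blue) for the 10 largest rises, the 10 largest falls, FKBP5, KLF9, DUSP1 and NR3C1. Day 6 values lie nearer to 0 than day 3 values for the rises and falls, with the day 6 intervals of TSC22D3, PER1, KRTAP2-3, KLF9, DUSP1 and NR3C1 spanning 0 and CRISPLD2, ADPRHL1, FST and IGFBP5 still apart from it.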

How the data were processed

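RNA of HMC3 cells was sequenced as 43 libraries (stranded total RNA, paired ends, per the labels' protocols). The deposited values are raw counts per gene made by the authors with STAR and featureCounts of Subread on GRCh38, per the submitters' processing notes. Versions and the strand setting are not given there. Counts were tested with edgeR 4.0.16 in R 4.3.3: TMM scaling, filterByExpr (minimum count 10, minimum total 15), 1 quasi-likelihood fit of all 43 libraries in 17 groups with 26 residual degrees of freedom, and Benjamini-Hochberg adjustment over 16816 genes at 0.05. Positions are from GENCODE and promoters from RefSeq. Genes named were the 10 largest rises and 10 largest falls whose mean log2 CPM reached 1 and whose groups did not overlap, up to 3 of each list by p, 8 receptor genes, and 5 of each further contrast; others are said to be named because of their values or illustrate a list. The members and lists were chosen with earlier results of these data known. In simulated counts, the net test recovered 84 of 100 genes changed 2-fold and 100 of 100 changed 4-fold, with 9 false calls over 16803 genes. The changed genes had a mean log2 CPM of at least 1, so recovery at lower levels was not measured. Genes were simulated independently, without deviations that a whole library shares. Nothing in the labels says that libraries came from separate cultures beyond their numbers, so the p-values speak only of the spread among these libraries, which may be technical. Alternatives used DESeq2 1.42.0 and limma 3.58.1. Some results are not reported here.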

Additional observations from a re-analysis of the deposited data

Results flagged for a closer look

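Of 30 genes, the 20 largest rises and falls of day 3, the largest of day 6 and the receptor genes, 21 had a dose difference that differed between day 3 and day 6 by edgeR's test of the difference itself, and 9 did not pass it. The values below are the direct difference of day 3 minus that of day 6 on the log2 scale, so a positive value means a larger rise, or a smaller fall, on day 3. Among the receptor targets it was 2.86 for TSC22D3, 2.12 for PER1, 1.42 for KLF9, 1.31 for CRISPLD2 and 0.86 for FKBP5. Among the other rises it was 2.41 for NID2, 2.02 for ABCA8, 1.91 for FAT4, 1.71 for ADPRHL1, 1.60 for CERNA2 and 1.24 for ENSG00000285417. Among the falls it was -2.26 for PSG1, -2.15 for KRTAP2-3, -2.10 for RGS4, -2.02 for F3, -1.98 for HAS2 and for PSG11, -1.39 for FST, -1.28 for IGFBP5, -1.13 for KRT34 and -0.99 for ABI3BP. Most of the 21 were chosen for their change on day 3, so the sign of these differences is largely set by that choice. INHBA, outside the 30, had a difference between the days of -0.48 (edgeR adjusted p = 0.0366).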

How the results depend on the processing

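The net count of 688 genes lay between 548 (own groups alone with the replicate block) and 939 (voom with sample weights) under other settings, and between 486 and 817 when 1 library was left out. The 20 largest rises and falls kept their call and direction in all 23 alternatives, and 12 of 65 named calls were lost in at least 1 (KIF11, ALDH1B1, IFIT1, NDRG1, IFIT2, MYC, DDB2, TXNIP, NR1D2, PFKFB4, VIM and HSPD1). Members called ranged from 9 to 15 receptor targets and from 7 to 10 pregnancy-specific glycoproteins. DUSP1 passed in its own groups with the block (adjusted p = 0.0403) and ARRDC4 without libraries above 75% ribosomal counts (adjusted p = 0.0389). The vehicle count of 17 became 27 with RLE, 28 with DESeq2, 27 at a mean count of 10, 6 in its own groups, 0 there with the block, 11 in the 27 day 3 libraries, 30 with the block and 7 with voom, and 1 to 156 when 1 library was left out. The direct count was 3930 with voom, and 1774 to 2265 when 1 library was left out. The count at 10 µM against its vehicle was 887 in its own groups with the block, and 1394 to 2310 when 1 library was left out, lowest without replicate 4 of 10 µM. At 0.01 µM it was 1 with DESeq2 and 1 with voom. The day 6 count was 426 with DESeq2, 654 with voom, 460 without libraries above 75% ribosomal counts, and 82 to 335 when 1 library was left out. The dexamethasone dose count was 14 with DESeq2 and with voom, 4 without ribosomal genes, 1 in its own groups with or without the block, and 4 to 18 when 1 library was left out. The matched-dose count was 430 in its own groups, 298 there with the block, and 564 to 947 when 1 library was left out. The difference between the days, added with the medians at 0.01 µM after seeing the data, was called for 1829 genes in its own groups with the block, 2097 with voom, and 677 to 1238 when 1 library was left out. With the replicate block in the fit of all libraries, 693 genes passed the net test. Same-numbered libraries at 10 µM and 0.01 µM correlated at 0.04, 0.26 and 0.12 in their deviations from the group means. Differently numbered ones correlated at -0.40 to 0.25. Deviations within a group sum to 0, so these values cannot decide whether the numbers mark pairs. The main fit did not take the numbers as pairs. The causes were not tested. Counts on non-ribosomal genes were as few as 1083399 in replicate 3 of 0.01 µM dexamethasone and 2104863 in replicate 1 of the vehicle of 10 µM.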
